A study of Arabis alpina with 12 samples.

Results

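The organ difference in the pep1-1 mutant of Arabis alpina was described by setting 3 shoot apex libraries of pep1-1 plants against 3 leaf libraries of pep1-1 plants. These are 6 of the 12 libraries of the series, taken by their genotype and tissue labels, and the 6 wild-type (WT) libraries served only as a reference for the ratio between the organs. Both genotypes are in the accession Pajares. Per the labels, plants grew on soil at 22 °C in long days to an age of 2 weeks, although the design text gives a younger age, and apices and leaves were collected 8 h after lights on. No other agent or allele is named for any group. The mutant is represented by a single allele, and the library titles read PEP1 where the genotype label reads pep1-1, so every direction given for the mutant rests on that label. An effect of the mutation cannot be told apart from any other difference between the pep1-1 and Pajares plants.

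FLC is a MADS-domain transcription factor that represses flowering in Arabidopsis, and PEP1 is its orthologue in the perennial Arabis alpina, where it restricts flowering until plants have passed through cold. The shoot apex holds the meristem, where stem cells divide, together with the youngest leaf primordia. Expanded leaves are the main photosynthetic organ. In such bulk tissue, fewer cells of a type and less RNA per cell cannot be told apart.

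No gene names stand beside the identifiers in the deposited tables. The PEP1 transcript and the known marker genes of meristem, dividing cells and leaf were therefore not checked here, and loci are given by the chromosome and position that the tables hold (genome build not given in the sources used here). A few loci are also given by identifier.

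With 1 transcript used for each gene, libraries held 32022088, 39906004 and 43695184 counted reads in pep1-1 apex and 36295150, 22483197 and 28931995 in pep1-1 leaf. WT libraries held between 19746210 and 38819193 reads. Replicates of pep1-1 apex were less alike than those of pep1-1 leaf, with a median SD of 0.19 against 0.12 on the log2 CPM scale (CPM, read counts scaled to library size and composition). Chi-square per degree of freedom between replicates was 38.6 to 83.2 in pep1-1 apex and 7.37 to 9.17 in pep1-1 leaf (far above counting noise, which leaves no sign of a library deposited more than once). Pearson correlations of log2 CPM across genes were 0.983 to 0.987 within pep1-1 apex, 0.991 to 0.992 within pep1-1 leaf, and 0.852 to 0.884 between an apex and a leaf library. Whether replicates came from separate plants is not stated in the labels, so the p-values reflect only how these samples vary among themselves, and part of that may be technical.

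Most measured genes differed between the organs of the mutant. Of 23517 genes tested, 16018 passed an adjusted p under 0.05 (68.1%, edgeR), of which 7796 were higher in apex (33.2%) and 8222 were higher in leaf (35.0%). The scaling centres the ratios, with a median log2 ratio of -0.03 over all tested genes, so the near-even split of directions depends on it. The 3 apex and the 3 leaf libraries did not overlap for 16884 genes (71.8%), and 15548 genes were both called and free of overlap. The median size of the log2 ratio over all tested genes was 0.61, and the median standard error was 0.14. Large differences were less common, with 3904 genes at least 2-fold higher in apex and 3540 at least 2-fold higher in leaf. At least 4-fold differences numbered 1524 genes higher in apex and 1313 higher in leaf. Without pep1-1 apex replicate 3, the library of that organ whose removal lowered the count most, 15022 genes passed, and without pep1-1 leaf replicate 1 there were 14852.

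**Figure D1:**
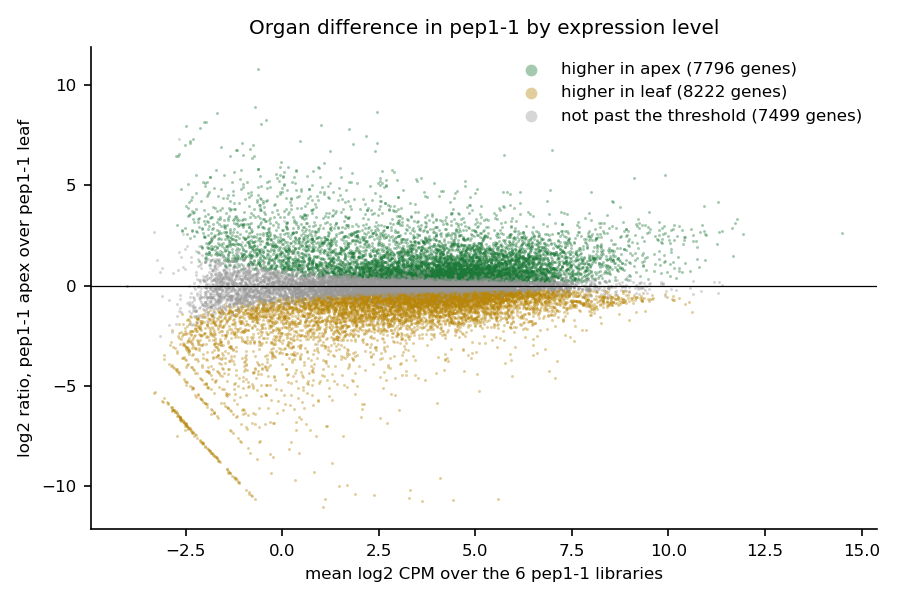
Mean log2 CPM over the 6 pep1-1 libraries (horizontal axis) against the log2 ratio of pep1-1 apex over pep1-1 leaf (vertical axis), 1 point per gene. The 7796 genes higher in apex lie above 0 and the 8222 higher in leaf below it. The most extreme ratios in both directions belong mainly to weakly expressed genes.

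The 2 directions differed in the expression level of their genes. Among the genes of the highest expression quartile in pep1-1, 45.9% were higher in apex and 31.3% were higher in leaf. Among those of the lowest quartile the order was turned, with 24.1% higher in apex and 35.2% higher in leaf. Of the genes at least 4-fold higher in apex, 379 were in the highest quartile and 645 in the lowest. Of those at least 4-fold higher in leaf, 51 were in the highest quartile and 950 in the lowest. Accordingly, the apex genes of this size had a median of 14.5 CPM in apex and 1.67 CPM in leaf. The leaf genes of this size had a median of 0.231 CPM in apex and 2.94 CPM in leaf. More reads raise the power to call a gene, so the called shares per quartile are also shaped by depth. Their split between the directions depends on the scaling of the libraries.

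Extreme ratios lay mostly on the leaf side. A fitted ratio of at least 64-fold was found for 39 genes higher in apex and 203 higher in leaf, but 13 of the apex genes and 115 of the leaf genes had 0 reads in the lower organ, where the fitted value depends on the prior count. With a floor of 3 reads over the group in place of 0, apex was higher for 26 genes and leaf for 97. At 16-fold with the same floor apex was higher for 234 and leaf for 367, while at 4-fold apex was higher for 1537 and leaf for 1327.

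Reads were concentrated in fewer genes in the apex. The number of genes that together took 50% of the reads was 635, 604 and 554 in pep1-1 apex libraries, against 1314, 1429 and 1334 in pep1-1 leaf libraries. The groups did not overlap, and the exact two-sided permutation p of 0.1 is the smallest that 3 against 3 libraries allow. The 100 most abundant genes took 28.6% ± 1.66 of reads in pep1-1 apex and 13.8% ± 0.404 in pep1-1 leaf (SD, n = 3 each). WT showed the same order, with 27.0% in WT apex and 13.4% in WT leaf. The scaling factor for library composition averaged 0.803 in pep1-1 apex and 1.20 in pep1-1 leaf.

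The 1524 genes at least 4-fold higher in apex made up a large part of the apex libraries. They took 30.2%, 32.8% and 35.4% of reads in pep1-1 apex, against 7.08%, 7.05% and 7.71% in pep1-1 leaf. The 1313 genes at least 4-fold higher in leaf took 0.229%, 0.266% and 0.200% of reads in pep1-1 apex, against 3.26%, 3.20% and 2.85% in pep1-1 leaf. These genes were chosen by this contrast in these libraries, so the shares within pep1-1 are a description with no test. In WT libraries, whose values do not enter that ratio, the apex genes took 28.6% to 31.4% of reads in WT apex and 6.11% to 6.82% in WT leaf. The leaf genes took 0.278% to 0.323% in WT apex and 2.94% to 3.69% in WT leaf.

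**Figure D2:**
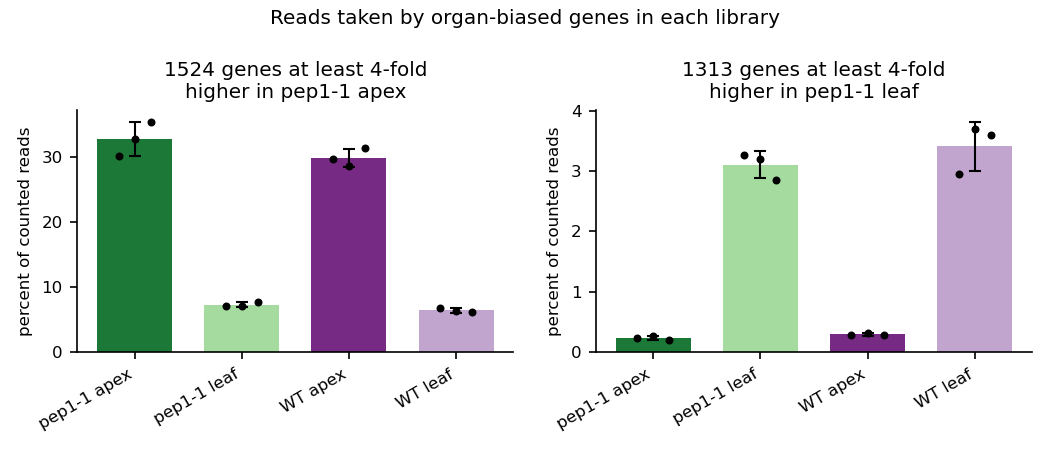
Percent of counted reads per library taken by the 1524 genes at least 4-fold higher in pep1-1 apex (left) and by the 1313 genes at least 4-fold higher in pep1-1 leaf (right). Bars are group means, error bars SD over 3 libraries and points single libraries. Apex genes fill 30.2% to 35.4% of pep1-1 apex reads, while leaf genes fill 2.85% to 3.26% of pep1-1 leaf reads.

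A single locus took more reads than any other gene in the apex and leaf libraries of both genotypes. A gene on chromosome 6 (35720728 to 35722482) took 4.61% ± 0.226 of reads in pep1-1 apex and 1.09% ± 0.0986 in pep1-1 leaf, with a log2 ratio of 2.65 (SE 0.15). In WT it took 4.44% ± 0.243 of reads in apex and 0.854% ± 0.0919 in leaf. It overlaps another gene model, so with no stated strand setting its reads cannot be assigned to one of them. Among genes at least 4-fold higher in apex, a gene on chromosome 4 (17469629 to 17472556) followed. It took 0.896% ± 0.067 in pep1-1 apex and 0.134% ± 0.00992 in pep1-1 leaf. The next, on chromosome 3 (283964 to 288520), took 0.854% ± 0.101 in pep1-1 apex and 0.0716% ± 0.0138 in pep1-1 leaf (SD, n = 3 each for all 3 loci). Among genes at least 4-fold higher in leaf, the most abundant was Aa_G804220, with 0.225% ± 0.0425 of reads in pep1-1 leaf.

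Of the 5879 genes in the highest expression quartile, which starts at a mean log2 CPM of 4.98, 77.2% were called in pep1-1. Well expressed genes were those with a mean log2 CPM over pep1-1 libraries not under 5. Among them, 2614 were called higher in apex and 1791 higher in leaf with organs not overlapping. The largest apex ratio belonged to Aa_G180310 on chromosome 7 (24939160 to 24941576). It had 1241, 1232 and 1511 CPM in pep1-1 apex, against 15.6, 10.0 and 11.2 CPM in pep1-1 leaf. Its log2 ratio was 6.75 (SE 0.34, edgeR adjusted p = 4.1e-09). In WT the ratio was 7.11 on the log2 scale. Aa_G453790 on chromosome 6 (17539521 to 17545065) came next, with 436, 458 and 686 CPM in pep1-1 apex, against 4.56, 4.72 and 7.69 CPM in pep1-1 leaf. Replicate 3 was the highest in both organs, and the log2 ratio of the gene was 6.54 (SE 0.27, edgeR adjusted p = 1.41e-09) in pep1-1 and 6.90 in WT.

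Some of the strongest apex loci varied widely between apex libraries. One on chromosome 8 (20012448 to 20015883) had 4788, 6256 and 9700.2 CPM in pep1-1 apex, against 84.9, 152 and 214 CPM in pep1-1 leaf. Another on chromosome 4 (10512174 to 10513228) had 2319.8, 2754 and 6209.8 CPM in pep1-1 apex, against 99.7, 80.9 and 91.7 CPM in pep1-1 leaf. Replicate 3 stood above the other apex libraries at both, and without it the log2 ratio of the chromosome 4 locus was 4.81 in place of 5.37. Over the 12 largest apex ratios, the log2 ratio ranged from 4.57 to 6.75 in pep1-1 and from 4.47 to 7.11 in WT, with edgeR adjusted p between 1.63e-10 and 3e-07 in pep1-1. All 12 had their highest pep1-1 apex value in replicate 3. WT apex replicate 3 was also the highest WT apex library at each of them except 1. The exception was a locus on chromosome 7 (10172893 to 10174827), with 606, 614 and 515 CPM in WT apex.

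On the leaf side, Aa_G804220 on chromosome 7 (4374059 to 4374713) stood apart. It had 1.08, 1.26 and 1.26 CPM in pep1-1 apex, against 2336, 1672 and 1654 CPM in pep1-1 leaf. The apex libraries were nearly empty for this gene, and its log2 ratio was -10.61 (SE 0.25, edgeR adjusted p = 3.6e-11) in pep1-1 and -10.67 in WT. A second locus on chromosome 7 (4377532 to 4378078), 2818 bp away, behaved alike, with 0.540, 0.492 and 0.467 CPM in pep1-1 apex, against 1085, 707 and 688 CPM in pep1-1 leaf. Its log2 ratio was -10.69. Near-identical neighbouring copies can share reads, and whether these are such copies was not tested.

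Aa_G432960 on chromosome 8 (28678209 to 28680803) had 5.44, 4.82 and 6.43 CPM in pep1-1 apex, against 213, 247 and 179 CPM in pep1-1 leaf. Its log2 ratio was -5.26 (SE 0.32, edgeR adjusted p = 1.81e-08) in pep1-1 and -5.62 in WT. The chromosome 6 locus at 15171197 to 15173009 varied more in apex, with 50.4, 22.6 and 14.5 CPM in pep1-1 apex, against 582, 599.9 and 488 CPM in pep1-1 leaf. Its log2 ratio was -4.26, and -4.92 without pep1-1 apex replicate 1. Over the 12 largest leaf ratios, the log2 ratio ranged from -10.61 to -3.36 in pep1-1 and from -10.67 to -2.91 in WT, with edgeR adjusted p between 3.6e-11 and 1.78e-06 in pep1-1. For 9 of these 12 loci the lowest pep1-1 apex value was in replicate 3. In WT apex, replicate 3 was the lowest at fewer of them, among them the chromosome 6 locus above, with 85.6, 57.8 and 35.6 CPM.

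**Figure D3:**
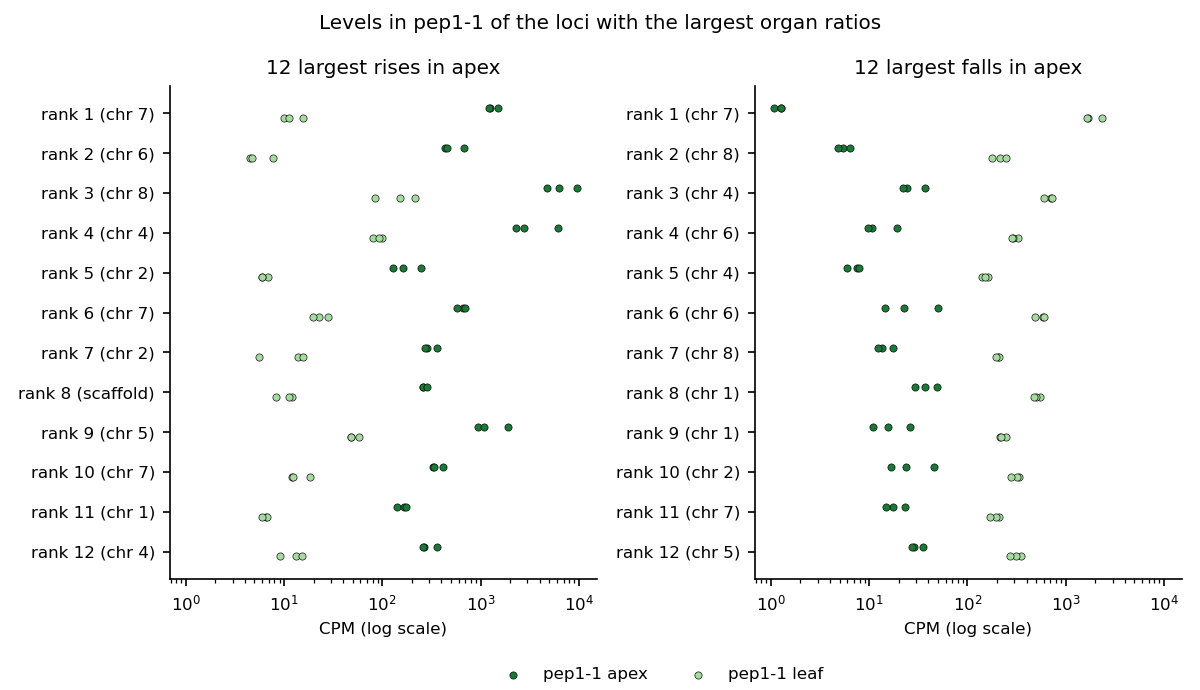
CPM on a log scale in each pep1-1 apex and pep1-1 leaf library for the 12 loci with the largest ratios in each direction among well expressed genes. The 3 apex and 3 leaf points of every locus are separate because loci with overlapping organs were not eligible. The first leaf locus spans from 1.08 to 2336 CPM.

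Some genes were read almost in a single organ. At least 100 reads over the 3 libraries of one organ and at most 3 over those of the other were found for 15 genes in pep1-1 apex and 107 in pep1-1 leaf. Of the 15 apex genes 4 had 0 leaf reads, and 8 met the same limits in WT. Of the 107 leaf genes 45 had 0 apex reads, and 79 met the same limits in WT. The leaf genes that missed the limits in WT mostly did so through a few reads in WT apex, at most 12 in any gene.

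The apex gene with most reads of this kind, on chromosome 1 (4941655 to 4945126), had 669 reads in pep1-1 apex and 2 in pep1-1 leaf. That is a ratio of 377 after scaling (exact binomial 95% counting interval 104 to 3121). Another on chromosome 1 (6361358 to 6363818) had 639 reads in pep1-1 apex and 0 in pep1-1 leaf, at least 240-fold higher in apex against a floor of 3 reads over the group. On the leaf side, a locus on chromosome 3 (2554850 to 2555524) had 3 reads in pep1-1 apex and 6131 in pep1-1 leaf, and one on chromosome 1 (9139508 to 9141482) had 2 in pep1-1 apex and 5510 in pep1-1 leaf. Their leaf over apex ratios were 1812 (620 to 8791) and 2443 (676 to 20181), with intervals that cover counting error only. The remaining loci named by the same rule had fewer reads. On chromosome 7 (27136407 to 27137613), 613 reads in pep1-1 apex and 1 in pep1-1 leaf gave an apex over leaf ratio of 691 (124 to 27344), and apex replicate 3, at 11.7 CPM, stood above the other apex libraries at 3.59 and 3.66 CPM. On chromosome 2 (1762367 to 1765745), 2 reads in pep1-1 apex and 2170 in pep1-1 leaf gave a leaf over apex ratio of 962 (266 to 7951). With 1 to 3 reads in the lower organ, 4 of the fitted ratios, which depend on the prior count, moved by over 1.5 times when 1 library was left out. At the largest moves the fitted log2 ratio was -13.84 in place of -10.61 for the chromosome 3 locus without pep1-1 apex replicate 2, and -12.41 in place of -9.70 for the chromosome 2 locus without pep1-1 apex replicate 3. Without pep1-1 leaf replicate 1 it was 10.65 in place of 8.89 for the chromosome 7 locus and 7.60 in place of 8.26 for the first chromosome 1 locus. Without pep1-1 apex replicate 3 it was also -9.99 for the chromosome 3 locus and 8.09 for the chromosome 7 locus.

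The organ difference was spread over the genome. On chromosomes 1 to 8, 31.4% to 34.8% of tested genes were higher in apex and 33.5% to 37.7% were higher in leaf. The 2000 tested genes on scaffolds had lower shares, with 28.8% higher in apex and 26.4% higher in leaf. Gene models at least 4-fold higher in apex spanned a median of 1791 bp and those at least 4-fold higher in leaf 1815 bp, against 2110 bp over all tested genes. Several annotated transcripts were present for 6.43% of these apex genes and 6.85% of these leaf genes, against 9.31% of all tested genes.

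The WT ratio was then used to ask which organ differences of the mutant were kept. In WT, 15300 genes passed (65.1%), of which apex exceeded leaf for 7554 (32.1%) and leaf exceeded apex for 7746 (32.9%). Of the genes called in pep1-1, 13992 were called in the same direction in WT, which is 87.4% of the pep1-1 calls and 91.5% of the WT calls. They comprised 6929 apex genes and 7063 leaf genes. Across the 23517 genes the log2 ratios of pep1-1 and WT had a Pearson correlation of 0.956, as a description over genes that are not independent replicates. The pep1-1 and WT ratios share no library. Their calls come from one fit with a common filter, scaling and estimate of the spread of each gene, so the calls are not independent.

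Genes called in a single genotype mostly had small ratios in both. The 2022 called in pep1-1 alone had a median log2 size of 0.53 in pep1-1 and 0.24 in WT, and 1913 of them had the same sign in WT. The 1304 called in WT alone had a median of 0.23 in pep1-1 and 0.49 in WT, and 1232 had the same sign in pep1-1. Passing in one genotype and missing in the other does not show that the ratios differ.

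The difference between the organ ratios was tested directly. No gene passed an adjusted p under 0.05 in edgeR (0%), the lowest being 0.190, and limma with voom also called 0. The DESeq2 Wald test called 9, with adjusted p from 7.13e-07 to 0.0499. Of these, 8 were among the 12 loci chosen for description, which were the 6 wider and the 6 narrower in pep1-1 with the smallest edgeR p. The other, on chromosome 4 (4261315 to 4262493), had DESeq2 log2 ratios of 3.77 in pep1-1 and 2.57 in WT (DESeq2 adjusted p of the difference = 0.0495). At an unadjusted p under 0.05 edgeR gave 991 genes (4.21%), of which 635 were wider and 356 narrower in pep1-1, where 1175.9 would fall below that limit if no ratio differed. The median standard error of the difference was 0.20 on the log2 scale.

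By size alone, 8120 genes were past the threshold with at least a 2-fold ratio in pep1-1 or in WT, and 7369 of them (90.8%) had log2 ratios within 1 of each other and were counted as kept. The ratio was wider in pep1-1 by at least 1 for 267 genes counted as widened (3.29%), and for 169 more (2.08%) that were past the threshold in pep1-1 only and were counted as gained. It was narrower by at least 1 for 225 genes counted as narrowed (2.77%), and for 90 more (1.11%) that were past the threshold in WT only and were counted as lost. No gene of this size was past the threshold in both genotypes with opposite directions. These classes come from sizes and carry no test.

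Kept genes had higher levels than the genes of the other classes. The median of the mean log2 CPM was 2.83 for kept genes, against -1.06 for widened, -1.27 for gained, -1.05 for narrowed and -1.37 for lost genes. Lost genes had a median log2 size of 0.47 in pep1-1 and 1.78 in WT, and gained genes 2.20 in pep1-1 and 0.46 in WT. Of the 8120 genes, 607 had an unadjusted p of the difference under 0.05, and 343 of these were among the 7369 kept genes. Over all 23517 tested genes the number was 991 (4.21%). The other classes were chosen by a difference of at least 1, so the count of 607 is no test of these genes.

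**Figure D4:**
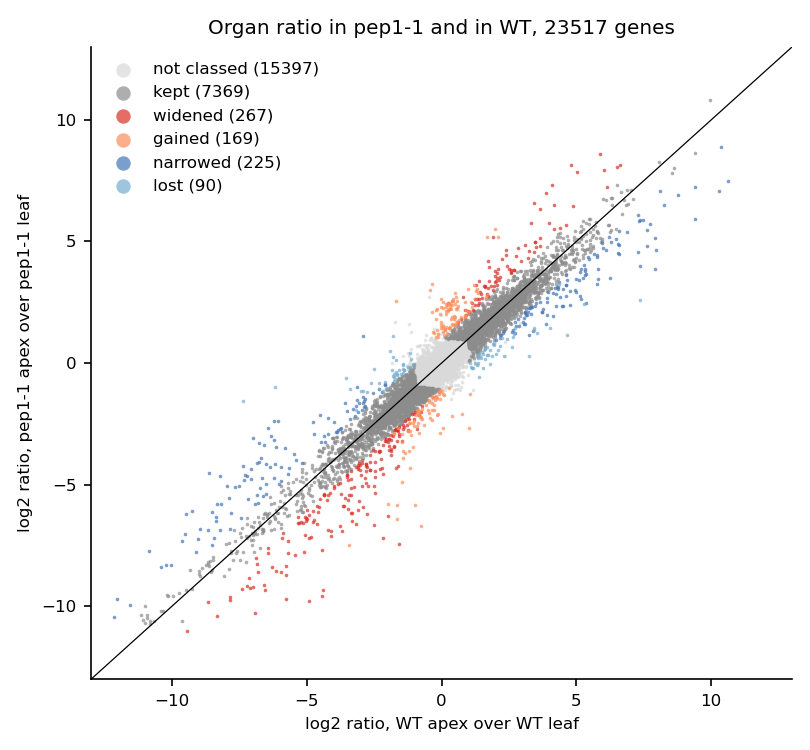
Log2 ratio of pep1-1 apex over pep1-1 leaf (vertical axis) against that of WT apex over WT leaf (horizontal axis), 1 point per gene, coloured by class. The points follow the line of equal ratios, and the 7369 kept genes surround it while the 267 widened, 169 gained, 225 narrowed and 90 lost genes lie off it.

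The median ratio of the strongest organ genes was compared between the genotypes as a description with no test. The 1510 genes at least 4-fold higher in apex by the mean of both ratios had a median log2 ratio of 2.68 in pep1-1 and 2.77 in WT. The median difference was -0.10, with a standard error of 0.11 from the library medians of the 4 groups. The 1241 genes at least 4-fold higher in leaf had medians of -3.24 in pep1-1 and -3.02 in WT, with a median difference of -0.15 and a standard error of 0.14. This difference was -0.28 without pep1-1 apex replicate 2 and -0.04 without pep1-1 apex replicate 3. The median difference over all tested genes was -0.03.

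The locus with the smallest p of the difference lay on chromosome 4 (21856576 to 21859137). It had 20.2, 23.4 and 25.9 CPM in pep1-1 apex and 12.7, 12.7 and 10.97 CPM in pep1-1 leaf, against 1.59, 2.19 and 2.47 CPM in WT apex and 2.88, 3.05 and 3.58 CPM in WT leaf. Apex was higher in pep1-1 with a log2 ratio of 0.94 and leaf was higher in WT with -0.63, both past the threshold. The difference of 1.57 (SE 0.22) had an edgeR adjusted p of 0.190 and a DESeq2 adjusted p of 7.13e-07. Both organs had higher CPM in pep1-1 than in WT.

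It was 1 of 4 genes called in both genotypes with opposite directions, all under 2-fold in both and chosen after their values were seen. None of the 4 passed the adjusted test of the difference in edgeR, while the DESeq2 Wald test called 2, the chromosome 4 locus and the one on chromosome 1 (DESeq2 adjusted p = 0.0279). The number of such genes was 2 to 8 when single libraries were left out. The locus on chromosome 8 (561097 to 563041) had 2.43, 2.70 and 2.02 CPM in pep1-1 apex and 3.22, 3.02 and 3.42 CPM in pep1-1 leaf, against 4.43, 4.35 and 3.56 CPM in WT apex and 3.32, 2.77 and 2.86 CPM in WT leaf. The libraries of the organs were separated in each genotype, but its pep1-1 call ended without pep1-1 apex replicate 3 or without pep1-1 leaf replicate 1 or 3 (edgeR adjusted p = 0.108, 0.0518 and 0.0720). That on chromosome 1 (5157127 to 5159140) had log2 ratios of 0.64 in pep1-1 and -0.57 in WT. The fourth, on chromosome 8 (22313408 to 22314518), had 0.30 in pep1-1 and -0.35 in WT, and its pep1-1 libraries overlapped between organs. Its pep1-1 call ended without pep1-1 apex replicate 2 or pep1-1 leaf replicate 2 or 3 (edgeR adjusted p = 0.225, 0.123 and 0.145). It also ended without WT apex replicate 2 or WT leaf replicate 3 (edgeR adjusted p = 0.0528 and 0.0530). It ended too with the 6 pep1-1 libraries alone, no low-count filter or a replicate block (edgeR adjusted p = 0.0907, 0.0513 and 0.0527).

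Among the 6 loci with the smallest p whose ratio was wider in pep1-1, both loci higher in leaf in each genotype had lower apex values in the mutant. The choice by a wider ratio itself favours such values at these loci. The one on chromosome 8 (36906578 to 36909182) had 59.8, 47.8 and 41.6 CPM in pep1-1 apex and 180, 168 and 187 CPM in pep1-1 leaf, against 114, 103 and 83.9 CPM in WT apex and 187, 184 and 197 CPM in WT leaf. Leaf values of the genotypes lay close together while apex values did not overlap, and the log2 ratios were -1.84 in pep1-1 and -0.92 in WT (DESeq2 adjusted p of the difference = 0.0279). The other, a weak locus on chromosome 4 (21314868 to 21316140), had 0.0772, 0.0922 and 0.146 CPM in pep1-1 apex and 3.97, 2.63 and 3.66 CPM in pep1-1 leaf, against 0.432, 0.460 and 0.724 CPM in WT apex and 3.14, 4.13 and 3.62 CPM in WT leaf. Its log2 ratios were -4.95 in pep1-1 and -2.80 in WT. A gained locus on chromosome 1 (18584626 to 18586000) had 5.98, 5.96 and 7.77 CPM in pep1-1 apex, above all its other libraries, which lay between 1.95 and 3.56 CPM (DESeq2 adjusted p of the difference = 0.0499).

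At all 6 loci with the smallest p whose ratio was narrower in pep1-1, the organ with the lower level had a higher mean CPM in pep1-1 than in WT. The choice by a narrower ratio itself favours this pattern, which is a description of these 6 loci with no test. A lost locus on chromosome 4 (22331549 to 22332911) had 2.86, 2.30 and 1.96 CPM in pep1-1 apex and 3.03, 3.10 and 2.25 CPM in pep1-1 leaf, against 0.721, 0.318 and 0.241 CPM in WT apex and 1.85, 2.87 and 2.94 CPM in WT leaf. The organs overlapped in pep1-1, where the log2 ratio was -0.24 (edgeR adjusted p = 0.437), and were separated in WT, where it was -2.49 (edgeR adjusted p = 3.13e-05). The difference was 2.25 (SE 0.44, DESeq2 adjusted p = 0.0102).

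The second, on chromosome 4 (7094125 to 7096139), had 0.579, 0.492 and 0.701 CPM in pep1-1 apex and 83.3, 61.6 and 57.7 CPM in pep1-1 leaf, against 0.216, 0.106 and 0.241 CPM in WT apex and 92.3, 84.6 and 94.95 CPM in WT leaf. It stayed a leaf gene in both genotypes, with log2 ratios of -6.82 in pep1-1 and -8.95 in WT (DESeq2 adjusted p of the difference = 0.0444). On the apex side, a locus on chromosome 1 (14848377 to 14851465) had 56.0, 61.9 and 62.3 CPM in pep1-1 apex and 0.329, 0.108 and 0.526 CPM in pep1-1 leaf, against 62.9, 51.8 and 64.2 CPM in WT apex and 0.0654, 0 and 0.0218 CPM in WT leaf. Its leaf reads were 35 in pep1-1 and 4 in WT, so its ratio rests on few reads. The next, on chromosome 3 (3173544 to 3178540), had 71.6, 61.5 and 60.02 CPM in pep1-1 apex and 1.97, 2.34 and 3.36 CPM in pep1-1 leaf, against 54.3, 47.3 and 47.8 CPM in WT apex and 1.09, 0.467 and 0.545 CPM in WT leaf. Values were higher in pep1-1 in both organs, and the log2 ratio was 4.66 in pep1-1 and 6.09 in WT (DESeq2 adjusted p of the difference = 0.0279).

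**Figure D5:**
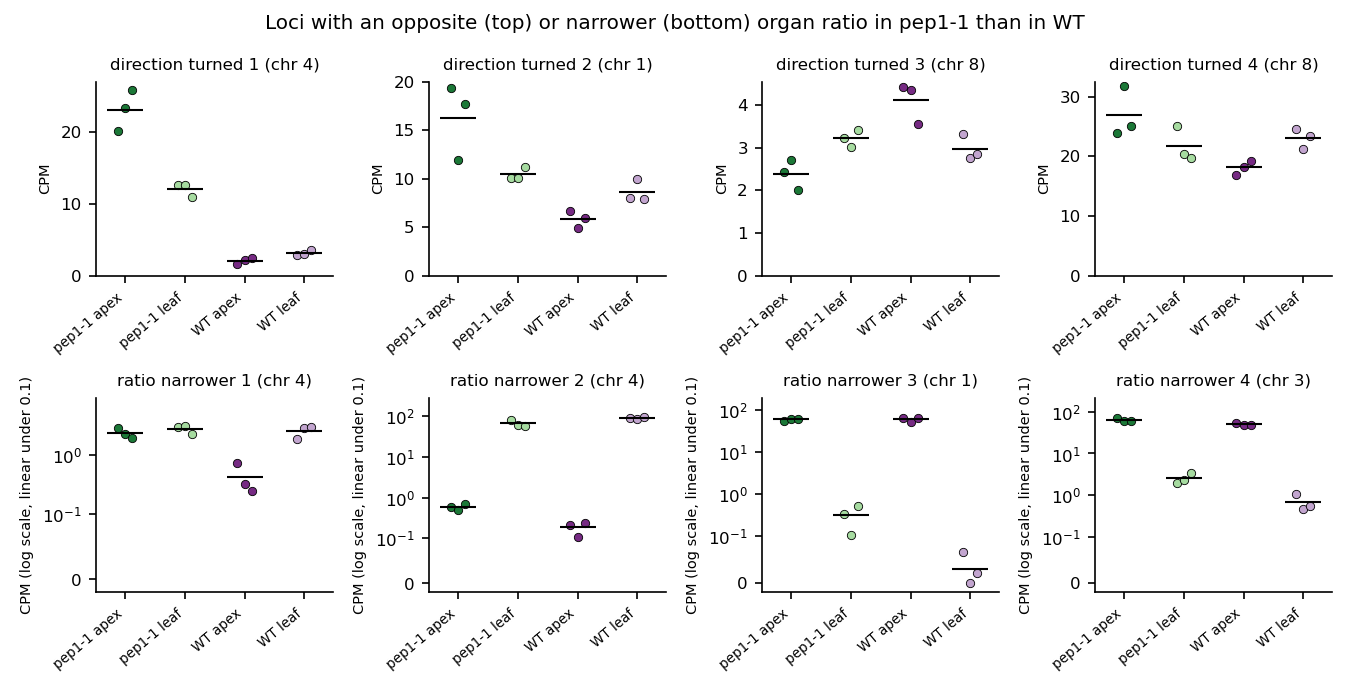
CPM in each library of the 4 genes whose direction differed between the genotypes (top, linear axis) and of the 4 loci narrower in pep1-1 with the smallest p of the difference (bottom, log axis that is linear under 0.1). Lines are means of 3 libraries. In the first panel apex lies above leaf in pep1-1, at 20.2 to 25.9 CPM, and below leaf in WT, at 1.59 to 2.47 CPM.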

How the data were processed

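Polyadenylated RNA of 12 libraries was sequenced, 3 for each of 4 groups. The authors deposited raw counts of reads for each annotated transcript, not normalized, per the file headers and values. TopHat, bedtools and DESeq2 1.10.0 are named, with no role, in the submitters' processing notes. Not given in the sources used here are the aligner settings, annotation and strand handling. The tables hold 39814 transcripts of 35465 genes. For each gene the transcript with most reads over the 12 libraries was used. The other transcripts held 4.90% to 5.62% of counts in the pep1-1 libraries.

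All 12 libraries entered one fit of edgeR 4.0.16 in R 4.3.3 (TMM factors, filterByExpr, robust quasi-likelihood F test, Benjamini-Hochberg adjustment over 23517 genes, adjusted p under 0.05). CPM values used the TMM factors over all libraries. The filter left out 11948 genes, of which 5977 had no read in any library. Standard errors are the size of the log2 ratio over the square root of F. Named loci are the largest ratios in each direction among well expressed genes (mean log2 CPM not under 5) whose organs did not overlap, the genes of at least 4-fold with most reads, those read in 1 organ, and those with the smallest p of the difference between the genotypes. Genes of opposite direction were added after their values were seen. Members and lists were chosen with earlier results of these data known. Alternatives were DESeq2 factors, DESeq2 1.42.0, limma 3.58.1 with voom, no filter, a replicate block, single-transcript genes, the 6 libraries of a genotype alone, a stricter threshold, a 1.5-fold class limit and each library left out. The procedure was tested on simulated data in which few genes changed, in balanced directions and in pep1-1 apex alone. That test does not check the scaling where most genes differ, as between these organs.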

Additional observations from a re-analysis of the deposited data

Results flagged for a closer look

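A locus on chromosome 8 (9117050 to 9119000), left out of the fit by the low-count filter, held 606 reads over the 6 pep1-1 libraries: 6, 0 and 600 in pep1-1 apex, 0 in each pep1-1 leaf library and 0 in each WT library. It was flagged because a signal absent from every WT library appeared in data that the main fit did not use. The alternative fit without the low-count filter did include this locus. Nearly all of its reads are in pep1-1 apex replicate 3, and it was the only gene with at least 100 reads in 1 library and at most 10 over the other 11.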

How the results depend on the processing

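The count of organ differences in pep1-1 lay between 14852 and 16166 when single libraries were left out, that in WT between 13962 and 15829, and the genes shared in direction between 13066 and 13857. Genes at least 4-fold higher in pep1-1 apex numbered 1473 to 1597 and those higher in pep1-1 leaf 1294 to 1510. The 6 pep1-1 libraries fitted alone gave 15166 calls, and an adjusted p under 0.01 gave 13382. Across settings, 48.1% to 49.6% of calls were higher in apex. Each setting scales the libraries so that the ratios are centred, with a median log2 ratio of -0.05 to 0. A near-even split is therefore largely set by the scaling. Under the same removals the difference between the ratios gave 0 to 1 call (1 without pep1-1 apex replicate 2), and DESeq2's Wald test gave 9; the cause was not tested. Kept genes numbered 7025 to 7547, widened 229 to 385, gained 178 to 255, narrowed 198 to 340 and lost 99 to 153. The extremes beyond 1.5 times were gained without WT apex replicate 1 (255) or 3 (254), narrowed without WT leaf replicate 1 (340), and lost without pep1-1 apex replicate 1 (153), leaf replicate 1 (152) or leaf replicate 2 (137). Without the low-count filter, which adds weak genes, gained rose to 381 and lost to 268. With a 1.5-fold class limit, which is looser by construction, widened were 621, gained 314, narrowed 510 and lost 178. The median difference of the ratios ranged from -0.16 to -0.03 for apex genes and from -0.28 to -0.04 for leaf genes over the removals. The 4 genes of opposite direction were 2 to 8 over the removals and 1 at an adjusted p under 0.01. The pep1-1 ratios of the named loci were recomputed under each setting that could be fitted, except the class limit, and none reversed; the WT ratios of single loci were not recomputed.

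Same-numbered apex and leaf libraries of a genotype did not deviate together (r = 0.117, -0.0639 and -0.0129 in pep1-1, and -0.00809, -0.0536 and 0.0446 in WT), so replicate numbers were not taken as pairs of organs. Whether same-numbered libraries of the same organ deviated together across genotypes was not tested, and the test of the difference uses no such pairs. With the number as a replicate block, 16078 genes passed in pep1-1, 15423 in WT and 0 for the difference. That block is common to both organs, so it cannot take up a replicate effect of a single organ. Weak genes limit the ratios, since one or a few reads in the lower organ set them.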

Other observations

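A locus on chromosome 7 (25050637 to 25054110), chosen after its values were seen, was read in both organs of the mutant and almost not in WT. It had 497 reads in pep1-1 apex and 240 in pep1-1 leaf, against 0 in WT apex and 3 in WT leaf. In pep1-1 it had 3.43, 3.81 and 8.30 CPM in apex, against 1.504, 3.24 and 2.52 CPM in leaf, so the libraries of the organs did not overlap, with a narrow gap between the lowest apex and the highest leaf value. The log2 ratio of 1.12 (SE 0.40, edgeR adjusted p = 0.0268) was 0.60 (edgeR adjusted p = 0.171) without pep1-1 apex replicate 3. The call also ended without pep1-1 leaf replicate 1 (0.86, edgeR adjusted p = 0.105) and without pep1-1 leaf replicate 3 (1.16, edgeR adjusted p = 0.0600), and over the alternatives run the adjusted p ranged from 0.00996 to 0.171.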
